A study of Mus musculus with 24 samples.

Results

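The genes described here encode the enzymes and the carrier that take up arginine, turn it into nitric oxide or ornithine, and make itaconate: Slc7a2, Ass1, Asl, Nos2, Gch1, Arg1, Arg2, Odc1 and Acod1. They were chosen by gene symbol from the deposited expression table, and are 9 of its 55291 symbols. Earlier results of these data were known at that choice. Counts of the 9 beside shares of all genes are therefore descriptions and no test of the set. All 9 were present on 1 line each, and all 9 passed the filter on low values, which kept 13246 symbols with at least 1 TPM in at least 4 libraries. TPM (transcripts scaled to a fixed library total) is a level also scaled by transcript length, so levels can be set side by side between genes.

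Arginine enters myeloid cells through cationic amino acid carriers such as Slc7a2. Inducible nitric oxide synthase, Nos2, oxidises it to nitric oxide and citrulline with tetrahydrobiopterin as a cofactor, and Gch1 makes the first committed step towards that cofactor, while Ass1 and Asl turn citrulline back into arginine. The arginases Arg1, in the cytosol, and Arg2, in mitochondria, split the same arginine into urea and ornithine, which Odc1 converts into the polyamine putrescine. Acod1 makes itaconate, an inhibitor of succinate dehydrogenase, from the citric acid cycle intermediate cis-aconitate, and is strongly induced in myeloid cells by LPS, the lipopolysaccharide of Gram-negative bacteria.

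The study grew dendritic cells from mouse bone marrow for 7 days with 20 ng/ml of GM-CSF, a growth factor that yields mixed dendritic and macrophage-like cells. Bulk RNA was sequenced from 24 cultures in 6 groups of 4: PWD with LPS, PWD untreated, C57 with LPS, C57 untreated, B6 with LPS and B6 untreated. LPS came from E. coli 0111:B4 and was given at 10 ng/ml for 6 hours. The strain labels PWD, C57 and B6 are printed as given, with no longer name in the labels. PWD is known as a strain derived from wild mice of the subspecies Mus musculus musculus, and the labels do not say how C57 and B6 differ. The submitters' processing notes name the build mm10. How well the reads of each strain aligned to it is not given, and the part of alignment in the strain differences was not tested. Each strain was represented by 4 mice, and each mouse by its own cultures.

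Every library summed to 1000000 TPM, so the number of reads behind a value is unknown and no counting interval can be given. Structural RNAs (mitochondrial ribosomal RNA and small stable RNAs) took 28.8 to 44.2% of the TPM. This share differed within PWD Untreated, at 41.9 and 40.3% in libraries 1 and 2 and 29.3 and 28.8% in libraries 3 and 4. It likewise differed within C57 LPS, at 39.9 and 41.2% in libraries 1 and 2 and 31.6 and 33.4% in libraries 3 and 4. Xist, the transcript that coats the inactive X chromosome, was between 0 and 0.0901 TPM in libraries numbered 1 and 2 and between 41.9 and 104 TPM in those numbered 3 and 4, in every strain. Where a called difference of the 9 genes lost its call or changed sign within either pair of numbers, the value in that pair is given. The median of all tested genes after LPS was -0.32 in PWD, -0.32 in C57 and -0.43 in B6 on the log2(TPM + 1) scale, so a gene near 0 stood above most others. A median-of-ratios scaling, which removes that shift, brought the all-gene median to -0.03 in C57 and closer still to 0 in PWD and B6.

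The label of dendritic cells was checked against marker genes. Itgax, which encodes CD11c, averaged 324 TPM in PWD LPS, 321 TPM in PWD Untreated, 244 TPM in C57 LPS, 308 TPM in C57 Untreated, 238 TPM in B6 LPS and 340 TPM in B6 Untreated. Flt3, Xcr1, Clec9a and Cd209a, markers of conventional dendritic cell lineages and of monocyte-derived dendritic cells, averaged at most 3.41 TPM in any group, while the macrophage receptors Adgre1 and Csf1r averaged at least 72.4 TPM. The 12 dendritic cell markers summed to between 3391 and 5005 TPM in PWD LPS, 3134 and 5414 TPM in PWD Untreated, 2500.2 and 2935 TPM in C57 LPS, 2657 and 3366 TPM in C57 Untreated, 7270.1 and 8738 TPM in B6 LPS, and 6772 and 8986 TPM in B6 Untreated, a total made up largely by Cd74 and H2-Ab1 of MHC class II presentation. The 12 macrophage and monocyte markers, each at 1 TPM or more in every group, summed to between 800 and 897 TPM in PWD LPS, 879 and 1065 TPM in PWD Untreated, 1347 and 1661 TPM in C57 LPS, 1695 and 1886 TPM in C57 Untreated, 1587 and 1676 TPM in B6 LPS, and 1916 and 2453 TPM in B6 Untreated. The members of that list were not alike between strains. After LPS, Cd68 averaged 364 TPM in PWD and 166 TPM in B6, and Mrc1 38.4 and 17.3 TPM. Adgre1 (119 and 101 TPM) and Csf1r (136 and 127 TPM) were also higher in PWD LPS than in B6 LPS. The other members were lower in PWD LPS, among them C1qb (7.20 and 289 TPM) and Ly6c2 (141 and 489 TPM). Cultures from PWD held far more transcripts of eosinophil genes. The 10 markers of mast cells, basophils and eosinophils summed to between 197 and 321 TPM in PWD LPS, 230 and 359 TPM in PWD Untreated, 16.6 and 32.6 TPM in C57 LPS, 26.9 and 41.8 TPM in C57 Untreated, 11.4 and 14.8 TPM in B6 LPS, and 18.4 and 25.6 TPM in B6 Untreated. The PWD sum was made up largely of Prg2 and Ear1, which encode eosinophil granule proteins, with Epx and Siglecf, and Prg2 averaged 120 TPM in PWD LPS and 4.08 TPM in C57 LPS, and at most 1.97 TPM in any B6 LPS library. The mast cell and basophil members of the list did not share that pattern: Kit averaged 1.09 TPM in PWD LPS, 2.63 TPM in C57 LPS and 3.92 TPM in B6 LPS, and Mcpt8 averaged 1.24, 4.56 and 0.874 TPM in the same groups. The 12 markers of neutrophils summed to between 821 and 1264 TPM in PWD LPS, 1829 and 3066 TPM in PWD Untreated, 1640 and 3041 TPM in C57 LPS, 2698 and 4327 TPM in C57 Untreated, 1219 and 1478 TPM in B6 LPS, and 1854 and 2104 TPM in B6 Untreated. S100a8 and S100a9 made up most of that total in every group. Lymphocyte markers summed to at most 7.45 TPM, stromal and endothelial markers to at most 14.0 TPM and erythroid markers to at most 4.89 TPM in any library. In bulk RNA, fewer cells of a type and less RNA per cell cannot be told apart, and the part of these markers in the strain differences below was not tested.

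The upstream sequences of 4 of the genes were available from RefSeq on the mouse build GRCm38.p6, and are shown because they pair the strongly induced Acod1 and the mildly induced Gch1 with Ass1 and Odc1, which were not higher after LPS on the deposited scale. Each is read from the 250 bases before the RefSeq start, 5′ to 3′ on the gene's strand. GENCODE, whose coordinates are used for the genes, starts Acod1, Ass1 and Odc1 further upstream, so that the last 35, 63 and 79 bases of their windows lie in its first exon and are left out of the printed sequence. Capitals mark matches on either strand to the letters of an NF-kB site (GGG, any 5 bases, then CC), and to TATAAA, the TATA box, and overlapping matches run together.
Acod1: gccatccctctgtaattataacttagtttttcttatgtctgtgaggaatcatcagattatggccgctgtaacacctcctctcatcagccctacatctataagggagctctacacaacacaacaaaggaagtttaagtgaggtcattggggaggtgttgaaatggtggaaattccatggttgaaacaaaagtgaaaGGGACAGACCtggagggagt
Gch1: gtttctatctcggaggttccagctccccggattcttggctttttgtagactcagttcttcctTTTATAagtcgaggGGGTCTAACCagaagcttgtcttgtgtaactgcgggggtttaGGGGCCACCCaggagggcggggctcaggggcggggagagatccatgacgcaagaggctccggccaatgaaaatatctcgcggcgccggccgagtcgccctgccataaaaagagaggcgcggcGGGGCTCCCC
Ass1: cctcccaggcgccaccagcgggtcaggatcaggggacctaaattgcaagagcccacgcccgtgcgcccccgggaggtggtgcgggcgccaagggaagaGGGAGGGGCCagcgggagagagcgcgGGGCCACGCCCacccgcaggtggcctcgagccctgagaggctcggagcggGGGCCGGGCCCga
Odc1: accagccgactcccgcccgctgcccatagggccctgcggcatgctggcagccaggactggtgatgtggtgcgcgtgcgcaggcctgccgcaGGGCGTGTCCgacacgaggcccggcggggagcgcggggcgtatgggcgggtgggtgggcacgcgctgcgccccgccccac
The printed bases lie at chr14:103046762-103046976 on the plus strand for Acod1, chr14:47189414-47189663 on the minus strand for Gch1, chr2:31470020-31470206 on the plus strand for Ass1, and chr12:17544623-17544793 on the plus strand for Odc1. The counts that follow are over the whole windows of 250 bases, with positions counted back from the RefSeq start. The Acod1 window was the only one of the 4 below the all-promoter median in base composition, with 44.4% G or C and 2 CpG dinucleotides, against 59.2% and 17 for Gch1, 75.6% and 23 for Ass1, and 80% and 35 for Odc1. Over 32851 mouse promoter windows of the same length the medians were 52.4% and 6. Acod1 also carried TATAAA at positions -28 to -23, past the GENCODE start, letters found in 12.4% of all windows, whereas the Gch1 match lay on the opposite strand at -188 to -183. NF-kB-form letters occurred in all 4 windows, including those of Ass1 and Odc1, and in 45.8% of all windows. The Ass1 window alone of the 4 held CACGTG, the E-box, at -36 to -31 and likewise past the GENCODE start. These letters occurred in 6.02% of all windows. ACGTG, the core of a hypoxia-response element (16.6% of all windows), lay within that E-box on both strands, and in the Acod1 window at -18 to -14 on the minus strand, also past that start. No match was found in the 4 windows to the interferon-response form of GAAA, any pair of bases and GAAA again (2.98% of all windows), to TTCNNNGAA of STAT sites (7.02%), to TGANTCA of AP-1 sites (6.75%) or to TTGCNNAA of C/EBP sites (9.56%). Such matches describe letters only.

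Across the 3 strains, LPS was followed by higher Slc7a2, Nos2, Gch1, Arg2 and Acod1 and by lower Odc1. Arg1 was lower after LPS in PWD and B6. A gene was called where its Benjamini-Hochberg adjusted p, from a limma fit of log2(TPM + 1) over all 13246 tested genes, was under 0.05. By that rule 5 of the 9 genes rose and 2 fell in PWD, where 63.5% of all tested genes were called (11.1% higher and 52.4% lower). In C57, 5 rose and 2 fell beside 62.5% of all genes (10.4% higher and 52.2% lower). In B6, 5 rose and 3 fell beside 71.6% of all genes (11.9% higher and 59.7% lower). The share of the 9 called in either direction was thus not far from that of all genes, while 5 of 9 were higher beside the shares of higher calls just given. With median-of-ratios scaling 7 of the 9 were higher and 1 lower in PWD, 6 and 2 in C57, and 6 and 2 in B6, and over all genes the counts were 3593 higher and 3461 lower in PWD, 3291 and 3494 in C57, and 4128 and 4025 in B6.

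**Figure D1:**
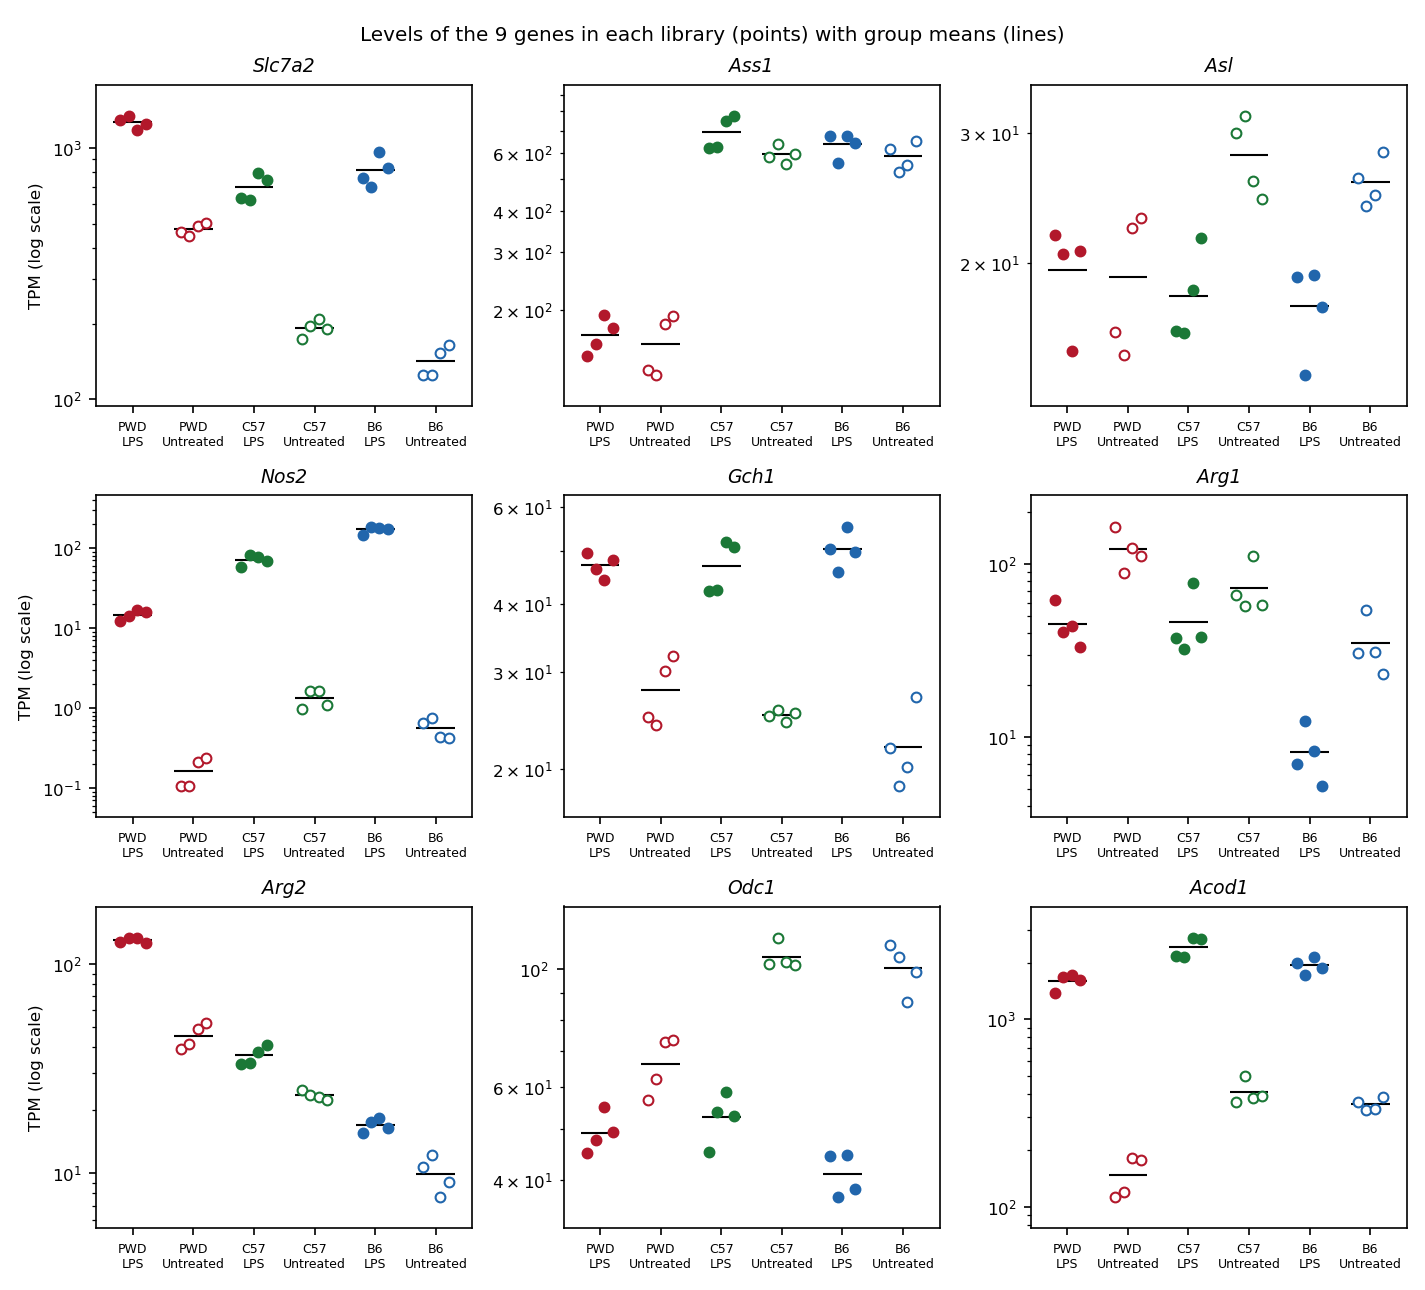
Level of each gene in each of the 24 libraries, in TPM on a log axis that differs between panels; filled points are LPS cultures, open points untreated cultures, colours mark the strain and lines the group mean of 4 libraries. Nos2 separates all 6 groups, Ass1 separates PWD from the other strains in both treatments, and Arg1 scatters within every group.

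Slc7a2, the inducible carrier of arginine and other cationic amino acids (mm10 chr8:40862396-40922308, plus strand), had the highest group mean of the arginine genes after LPS in each strain. In C57 that mean was close to that of Ass1, at 696 and 694 TPM. The Slc7a2 libraries read 1294, 1344, 1179 and 1249 TPM in PWD LPS, against 465, 444, 489 and 501 TPM in PWD Untreated. C57 LPS read 631, 618, 793 and 742 TPM, against 173, 196, 208 and 190 TPM in C57 Untreated. B6 LPS read 758, 697, 965 and 834 TPM, against 125, 125, 153 and 164 TPM in B6 Untreated. LPS and untreated cultures did not overlap in any strain. The LPS difference was 1.41 ± 0.10 in PWD (adjusted p = 9.22e-12), 1.85 ± 0.10 in C57 (adjusted p = 8.55e-14) and 2.51 ± 0.10 in B6 (adjusted p = 7.61e-17), where ± is the standard error and n = 4 per group in this and the later fits. In TPM these were 2.67-, 3.63- and 5.75-fold, lowest in the strain with the highest untreated level. The PWD response was 1.10 smaller than that of B6 (95% confidence interval -1.40 to -0.80, adjusted p = 2.89e-06), and the C57 response differed from that of B6 by -0.67 (interval -0.97 to -0.37, adjusted p = 0.00254). PWD and C57 responses differed by -0.43, which was not called (adjusted p = 0.0534) but passed when each mouse was kept as a block (adjusted p = 0.0170). PWD stayed highest in both treatments, by 0.65 over B6 after LPS (adjusted p = 4.24e-06) and by 1.75 without it (adjusted p = 3.83e-14).

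Ass1, argininosuccinate synthase, which begins the return of citrulline to arginine (mm10 chr2:31470207-31520672, plus strand), set PWD apart from both other strains in either treatment. Its libraries read 146, 158, 194 and 177 TPM in PWD LPS and 132, 127, 182 and 192 TPM in PWD Untreated. C57 read 622, 626, 751 and 777 TPM with LPS and 583, 639, 556 and 593 TPM untreated. B6 read 675, 557, 676 and 642 TPM with LPS and 617, 526, 549 and 652 TPM untreated. Every PWD library lay below every library of the other strains, whose groups overlapped one another. After LPS, PWD differed from B6 by -1.92 ± 0.12 (adjusted p = 1.06e-13) and from C57 by -2.03 ± 0.12 (adjusted p = 4.30e-14). Without LPS the differences were -1.90 (adjusted p = 1.54e-13) and -1.92 (adjusted p = 1.63e-13), so the group mean in B6 was 3.78 times that in PWD after LPS and 3.70 times untreated. LPS itself moved Ass1 by 0.10 in PWD (interval -0.14 to 0.35), 0.22 in C57 (interval -0.02 to 0.47) and 0.12 in B6 (interval -0.12 to 0.37), none of them called. These LPS values rest on the scaling: median-of-ratios gave 0.49 in PWD (adjusted p = 9.61e-06), 0.59 in C57 (adjusted p = 7.87e-07) and 0.69 in B6 (adjusted p = 3.96e-08). In C57 the fit with the mouse as a block also called it (adjusted p = 0.0409). A processed pseudogene, Ass-ps1, was at most 0.0575 TPM in any library. The part of read alignment in the lower Ass1 values of PWD was not tested.

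Asl, argininosuccinate lyase, the enzyme that completes that return (mm10 chr5:130011258-130029247, minus strand), ran at a far lower level, and was called lower in PWD than in the other strains without LPS and was not called with it. It ranged from 15.2 to 21.8 TPM in PWD LPS and from 15.0 to 23.0 TPM in PWD Untreated, from 16.1 to 21.6 TPM in C57 LPS and from 24.4 to 31.7 TPM in C57 Untreated, and from 14.1 to 19.3 TPM in B6 LPS and from 23.9 to 28.2 TPM in B6 Untreated. LPS and untreated cultures overlapped in PWD and were apart in C57 and B6. Untreated, PWD differed from B6 by -0.43 (adjusted p = 0.00876) and from C57 by -0.54 (adjusted p = 0.00171), and both calls were lost in numbers 3 and 4 (-0.21, adjusted p = 0.197, and -0.14, adjusted p = 0.434). After LPS the differences were 0.15 from B6 (adjusted p = 0.321) and 0.11 from C57 (adjusted p = 0.522). On the deposited scale Asl fell by 0.61 in C57 (adjusted p = 0.00043) and by 0.54 in B6 (adjusted p = 0.000975), against 0.04 in PWD (interval -0.24 to 0.32, adjusted p = 0.797). In numbers 3 and 4 the C57 value was -0.32 and lost its call (adjusted p = 0.0795). Under median-of-ratios scaling the PWD value became a rise of 0.41 (adjusted p = 0.00214), the C57 value -0.25 (adjusted p = 0.0480), and the B6 value -0.00013 (adjusted p = 1). The PWD value also moved with the libraries, at 0.42 in numbers 1 and 2 (adjusted p = 0.0191) and -0.33 in numbers 3 and 4 (adjusted p = 0.0509). These pairs differ in Xist and, in PWD Untreated, in structural RNA share, and the part of either in this change was not tested. The PWD response exceeded that of B6 by 0.58 (adjusted p = 0.0277) and that of C57 by 0.65 (adjusted p = 0.0260), and both calls were lost with each mouse as a block (adjusted p = 0.0520 and 0.0524). In numbers 3 and 4 the difference from B6 was 0.17 (adjusted p = 0.613) and that from C57 was -0.01 (adjusted p = 0.977). The ratio of Ass1 to Asl TPM averaged 8.90 in PWD LPS, 8.30 in PWD Untreated, 38.5 in C57 LPS, 21.3 in C57 Untreated, 36.7 in B6 LPS and 22.7 in B6 Untreated.

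Nos2, the inducible nitric oxide synthase (mm10 chr11:78920787-78960254, plus strand), had the largest LPS difference of the 9 genes in each strain and the largest spread between strains. Its libraries read 12.2, 14.3, 16.6 and 15.7 TPM in PWD LPS, against 0.106, 0.105, 0.209 and 0.234 TPM in PWD Untreated. C57 LPS read 58.7, 81.6, 77.4 and 68.8 TPM, against 0.979, 1.64, 1.64 and 1.09 TPM in C57 Untreated. B6 LPS read 148, 185, 179 and 171 TPM, against 0.645, 0.746, 0.427 and 0.420 TPM in B6 Untreated. No 2 of the 6 groups overlapped, and every neighbour in the order B6 LPS, C57 LPS, PWD LPS, C57 Untreated, B6 Untreated and PWD Untreated stood apart. After LPS, PWD was 3.45 ± 0.12 below B6 (log2 difference -3.45, adjusted p = 4.32e-19) and 2.21 below C57 (log2 difference -2.21, adjusted p = 1.08e-14). C57 differed from B6 by -1.25 after LPS (adjusted p = 3.00e-09). The B6 LPS mean was 11.6 times the PWD LPS mean and 2.38 times the C57 LPS mean. These 3 differences kept their sign and call under each scaling tried, in numbers 1 and 2 alone and in numbers 3 and 4 alone.

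Untreated, Nos2 was near 0 everywhere and the order of the strains was another one. C57 exceeded B6 by 0.58 (adjusted p = 0.000473), a call lost in numbers 1 and 2 (0.43, adjusted p = 0.106), and PWD differed from B6 by -0.42 (adjusted p = 0.00466), a call lost in numbers 3 and 4 (-0.22, adjusted p = 0.153). The LPS difference of Nos2 was 3.75 ± 0.12 in PWD (adjusted p = 6.01e-19), 4.96 ± 0.12 in C57 (adjusted p = 5.77e-21) and 6.78 ± 0.12 in B6 (adjusted p = 1.85e-24). The PWD response was 3.03 below that of B6 (difference -3.03, adjusted p = 6.61e-13), and the C57 response differed from that of B6 by -1.82 (adjusted p = 2.13e-07). PWD and C57 responses differed by -1.21 (adjusted p = 1.56e-05), but this value depends on the 1 TPM added before the logarithm: with 0.1 TPM it was 0.18 (adjusted p = 0.793). In plain TPM the group means rose 89.9-fold in PWD, 53.5-fold in C57 and 305-fold in B6. The order of the PWD and C57 responses thus changed with the scale at these low untreated levels, whereas the difference of either from B6 kept its sign and call under each scaling and pseudocount tried.

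Gch1, GTP cyclohydrolase, the entry to tetrahydrobiopterin synthesis (mm10 chr14:47153895-47189413, minus strand), rose after LPS in every strain to levels that were not set apart by strain on the deposited scale. It ranged from 44.3 to 49.5 TPM in PWD LPS and from 23.99 to 32.2 TPM in PWD Untreated, from 42.1 to 51.8 TPM in C57 LPS and from 24.3 to 25.6 TPM in C57 Untreated, and from 45.8 to 55.3 TPM in B6 LPS and from 18.6 to 27.0 TPM in B6 Untreated. LPS and untreated cultures were apart in every strain, and the 3 LPS groups overlapped. The LPS difference was 0.75 in PWD (adjusted p = 1.15e-06), 0.87 in C57 (adjusted p = 1.38e-07) and 1.17 in B6 (adjusted p = 2.71e-10). After LPS the strains were not distinguished on the deposited scale, with -0.09 for PWD over B6 (interval -0.31 to 0.13, adjusted p = 0.451), -0.11 for C57 over B6 (interval -0.32 to 0.11, adjusted p = 0.410) and 0.01 for PWD over C57 (interval -0.20 to 0.23, adjusted p = 0.924). Median-of-ratios scaling placed PWD at -0.43 (adjusted p = 1.21e-05) and C57 at -0.51 (adjusted p = 1.85e-06) relative to B6. The PWD response was 0.42 smaller than that of B6 (difference -0.42, adjusted p = 0.0392), and was lost in numbers 1 and 2 (-0.27, adjusted p = 0.146) and on leaving out any of 11 single libraries (adjusted p up to 0.0977). The C57 response differed from that of B6 by -0.30 (adjusted p = 0.184) and the PWD response from that of C57 by -0.12 (adjusted p = 0.713), neither called.

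**Figure D2:**
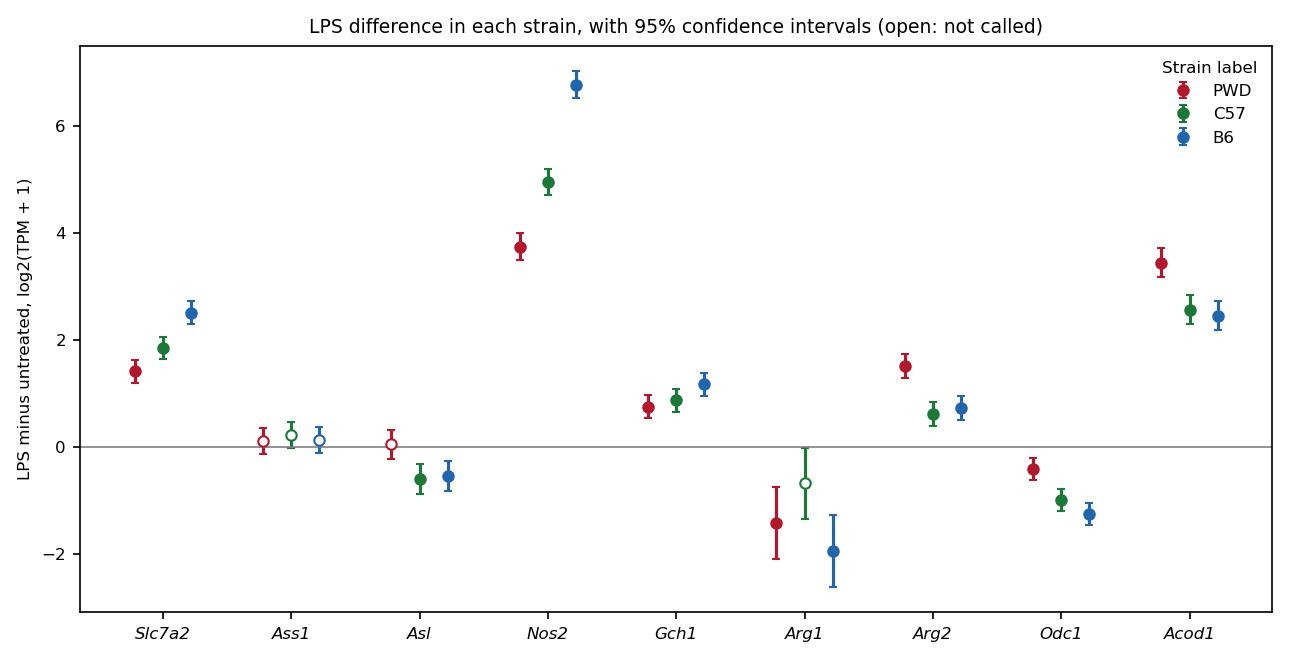
LPS minus untreated difference of each gene on the log2(TPM + 1) scale, by strain, with 95% confidence intervals from the limma fit on 4 libraries per group; open symbols were not called. Nos2 runs from 3.75 in PWD to 6.78 in B6, Acod1 and Arg2 are largest in PWD, and the Ass1, Asl and Odc1 values shift upwards under median-of-ratios scaling, where Odc1 in PWD is -0.04.

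Arg1, the cytosolic arginase (mm10 chr10:24915221-24927484, minus strand), was lower after LPS in PWD and B6, and higher in PWD and C57 than in B6 in both treatments. Its libraries read 62.4, 40.6, 43.9 and 33.2 TPM in PWD LPS, against 165, 89.6, 124 and 111 TPM in PWD Untreated. C57 LPS read 37.4, 32.4, 78.3 and 38.0 TPM, against 66.6, 57.2, 112 and 57.9 TPM in C57 Untreated. B6 LPS read 6.94, 12.3, 8.33 and 5.19 TPM, against 30.8, 54.6, 31.0 and 23.1 TPM in B6 Untreated. The groups overlapped in C57 and were apart in PWD and B6, and all 4 B6 LPS libraries lay below every other library. Within a group the highest library held between 1.85 and 2.42 times the lowest, the widest spread among the genes that stood above 1 TPM in every group. The same mouse number was highest in both treatments in each strain: number 1 in PWD, number 3 in C57 and number 2 in B6. Among the other genes this held only for Nos2 in B6, Slc7a2 in C57 and Acod1 in PWD. Pair by pair, LPS cultures held between 0.299 and 0.453 times the level of the untreated culture of the same number in PWD, between 0.562 and 0.701 times in C57, and between 0.225 and 0.269 times in B6.

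Fitted without pairing, Arg1 fell by 1.43 ± 0.32 in PWD (adjusted p = 0.000722) and by 1.95 ± 0.32 in B6 (adjusted p = 2.03e-05). In C57 the difference was -0.68 ± 0.32 and was not called (adjusted p = 0.0708). With each mouse as a block Arg1 fell in C57 as well, by the same 0.68 (adjusted p = 9.73e-06). The same block separated the responses: PWD differed from B6 by 0.52 (adjusted p = 0.00926, against 0.441 without the block), C57 from B6 by 1.27 (adjusted p = 1.29e-05, against 0.0670), and PWD from C57 by -0.75 (adjusted p = 0.00104, against 0.362). A positive value here means a smaller fall than in B6. Between strains, PWD exceeded B6 by 2.34 after LPS (adjusted p = 2.25e-06) and by 1.82 untreated (adjusted p = 6.52e-05), or 5.49 and 3.52 times the B6 mean. C57 exceeded B6 by 2.33 after LPS (adjusted p = 3.96e-06) and by 1.07 untreated (adjusted p = 0.0126), the last of which was lost without C57 Untreated library 3 (0.85, adjusted p = 0.0521) and in numbers 1 and 2 (0.58, adjusted p = 0.359). After LPS the difference of PWD from C57 was 0.01 and was not called (interval -0.66 to 0.68, adjusted p = 0.986).

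**Figure D3:**
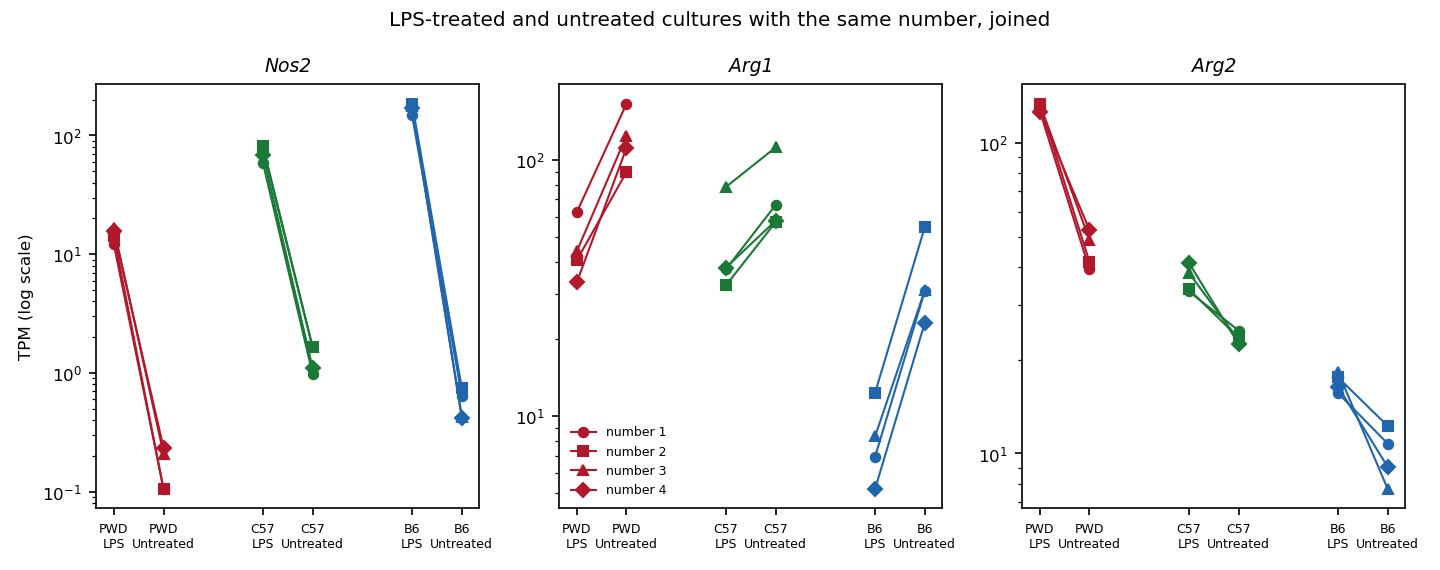
TPM of Nos2, Arg1 and Arg2 on log axes, with the LPS and the untreated culture of the same mouse number joined by a line and the 4 numbers given different symbols. The Arg1 lines run nearly in parallel, with number 1 highest in PWD, number 3 in C57 and number 2 in B6 at both ends.

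Arg2, the mitochondrial arginase (mm10 chr12:79130777-79156301, plus strand), moved against Arg1 after LPS. Its libraries read 127, 134, 134 and 126 TPM in PWD LPS, against 39.2, 41.4, 48.8 and 52.5 TPM in PWD Untreated. C57 LPS read 33.3, 33.8, 38.2 and 41.2 TPM, against 24.9, 23.6, 23.2 and 22.5 TPM in C57 Untreated. B6 LPS read 15.7, 17.6, 18.3 and 16.4 TPM, against 10.8, 12.3, 7.68 and 9.05 TPM in B6 Untreated. LPS and untreated cultures were apart in each strain, and the order PWD, C57, B6 held in both treatments. The LPS difference was 1.51 ± 0.11 in PWD (adjusted p = 7.42e-12), 0.61 ± 0.11 in C57 (adjusted p = 3.24e-05) and 0.73 ± 0.11 in B6 (adjusted p = 1.39e-06). The PWD response exceeded that of B6 by 0.77 (adjusted p = 0.000508) and that of C57 by 0.90 (adjusted p = 0.000174), while in numbers 3 and 4 the difference from B6 was 0.37 (adjusted p = 0.107). After LPS, PWD exceeded B6 by 2.87 (adjusted p = 2.09e-18) and C57 by 1.81 (adjusted p = 7.19e-14), and C57 exceeded B6 by 1.06 (adjusted p = 6.95e-09). Untreated, these differences were 2.10 (adjusted p = 2.26e-15), 0.91 (adjusted p = 6.63e-08) and 1.18 (adjusted p = 3.36e-09). Exons of Arg2 share 285 bases with Vti1b on the opposite strand, which ran at 25.6 to 48.2 TPM, and the setting for strand in the counting was not given in the labels.

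The make-up of the arginase transcripts differed between treatments, while their sum was similar in both in PWD. Arg2 took 74.6 ± 5.24% of the Arg1 and Arg2 TPM in PWD LPS and 27.8 ± 5.99% in PWD Untreated (SD, n = 4 in each group). The share was 45.7 ± 8.91% in C57 LPS and 25.4 ± 5.54% in C57 Untreated, and 68.2 ± 7.08% in B6 LPS and 23.1 ± 4.70% in B6 Untreated. Untreated shares were alike across strains and all LPS shares lay above all untreated ones. The sum of the arginases averaged 175 ± 12.4 TPM in PWD LPS and 168 ± 30.3 TPM in PWD Untreated, 83.1 ± 22.9 TPM in C57 LPS and 96.9 ± 25.9 TPM in C57 Untreated, and 25.2 ± 3.83 TPM in B6 LPS and 44.8 ± 15.2 TPM in B6 Untreated. Set against that sum, Nos2 stood at 0.0846 ± 0.0152 in PWD LPS, 0.900 ± 0.240 in C57 LPS and 6.83 ± 0.749 in B6 LPS, with no overlap between strains. In the untreated groups the same ratio was at most 0.0203 in any library. These ratios are given as descriptions, without a test, and transcript levels do not measure enzyme activity.

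**Figure D4:**
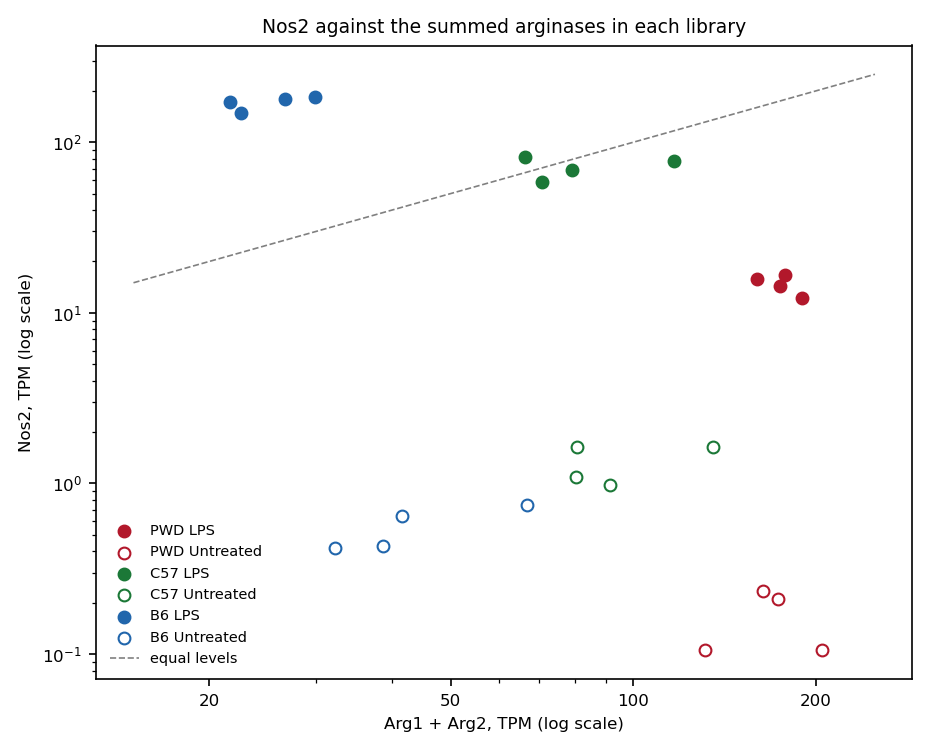
Nos2 against the sum of Arg1 and Arg2, both in TPM on log axes, for each library; filled points are LPS cultures, open points untreated ones, and the dashed line marks equal levels. B6 LPS lies above the line, C57 LPS close to it and PWD LPS below it, at mean ratios of 6.83, 0.900 and 0.0846.

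Odc1, ornithine decarboxylase, the rate-limiting enzyme that draws ornithine into polyamines (mm10 chr12:17544794-17551505, plus strand), was lower after LPS. It ranged from 45.1 to 54.9 TPM in PWD LPS and from 56.7 to 73.6 TPM in PWD Untreated, from 45.3 to 58.5 TPM in C57 LPS and from 101.6 to 114 TPM in C57 Untreated, and from 37.2 to 44.6 TPM in B6 LPS and from 86.7 to 111 TPM in B6 Untreated. LPS and untreated cultures were apart in every strain. Odc1 fell by 0.42 in PWD (adjusted p = 0.000782), by 0.99 in C57 (adjusted p = 6.37e-09) and by 1.26 in B6 (adjusted p = 2.42e-11). Under median-of-ratios scaling the fall in PWD was no longer called (-0.04, adjusted p = 0.640), while C57 at -0.63 (adjusted p = 3.13e-08) and B6 at -0.71 (adjusted p = 2.16e-09) were. The PWD response was 0.84 less negative than that of B6 (adjusted p = 7.13e-05) and 0.57 less negative than that of C57 (adjusted p = 0.00696), and both differences kept their calls under that scaling. In numbers 3 and 4 the difference from C57 was 0.38 and was not called (adjusted p = 0.0831). Untreated, PWD differed by -0.59 from B6 (adjusted p = 1.27e-05) and by -0.67 from C57 (adjusted p = 2.99e-06). After LPS, PWD exceeded B6 by 0.25 (adjusted p = 0.0280) and C57 exceeded B6 by 0.34 (adjusted p = 0.00443), and both turned to -0.08 and -0.06 under median-of-ratios scaling. In numbers 1 and 2 alone neither was called (0.18, adjusted p = 0.184, and 0.27, adjusted p = 0.0746).

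Acod1, the itaconate-forming enzyme (mm10 chr14:103046977-103056573, plus strand), was the most abundant of the 9 genes after LPS in every strain. Its libraries read 1372, 1673, 1726 and 1614 TPM in PWD LPS, against 113, 120.4, 182 and 178 TPM in PWD Untreated. C57 LPS read 2170.0, 2137, 2722 and 2666 TPM, against 362, 499, 382 and 389 TPM in C57 Untreated. B6 LPS read 1994, 1731, 2147 and 1870.3 TPM, against 362, 328, 334 and 385 TPM in B6 Untreated. LPS and untreated cultures were far apart in each strain, and untreated PWD lay below all other groups. The LPS difference was 3.45 ± 0.13 in PWD (adjusted p = 3.81e-17), 2.57 ± 0.13 in C57 (adjusted p = 4.07e-14) and 2.45 ± 0.13 in B6 (adjusted p = 3.74e-14), or 10.8-, 5.94- and 5.50-fold in TPM. PWD thus had the largest response, by 1.00 over B6 (adjusted p = 0.000345) and by 0.88 over C57 (adjusted p = 0.00231), while C57 and B6 responses differed by 0.12 (interval -0.27 to 0.51, adjusted p = 0.747).

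The larger response of Acod1 in PWD went with a lower untreated level, and the level after LPS was not higher in PWD than in the other strains. Untreated, PWD differed by -1.27 from B6 (adjusted p = 6.83e-09) and by -1.48 from C57 (adjusted p = 5.52e-10). After LPS, PWD differed by -0.28 from B6, which was not called (interval -0.55 to -0.003, adjusted p = 0.0674) and was -0.62 under median-of-ratios scaling (adjusted p = 1.71e-06). It differed by -0.60 from C57 (adjusted p = 0.000484). C57 exceeded B6 by 0.32 after LPS (adjusted p = 0.0429), a call lost without any 1 of 5 libraries (adjusted p up to 0.133) and in numbers 1 and 2 (0.21, adjusted p = 0.261), and turned to -0.09 by median-of-ratios scaling (adjusted p = 0.415). The Acod1 to Nos2 ratio averaged 109 ± 6.99 in PWD LPS, 34.3 ± 5.58 in C57 LPS and 11.5 ± 1.76 in B6 LPS, without overlap.

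The number of the 9 genes that differed between strains is set here beside the share of all tested genes. After LPS, 4 genes were higher and 2 lower in PWD than in B6, where 68.6% of all tested genes were called (49.7% higher and 19.0% lower), so that 6 of 9 was near that share. Untreated, 4 were higher and 5 lower in PWD than in B6, so that all 9 were called, where 57% of all genes were (37.2% higher and 19.7% lower). In C57 against B6, 4 were higher and 1 lower after LPS beside 58.8% of all genes (49.1% higher and 9.69% lower). Untreated, 4 were higher and 0 lower in C57 than in B6 beside 38.8% (31.9% higher and 6.92% lower), and Ass1, Asl, Gch1, Acod1 and Odc1 were not called (adjusted p between 0.140 and 0.915). In PWD against C57, 2 were higher and 3 lower after LPS beside 54.2% (24.4% higher and 29.8% lower), and 2 were higher and 5 lower untreated beside 46.2% (20.1% higher and 26.2% lower). The counts under median-of-ratios scaling were 3 higher and 4 lower for PWD over B6 after LPS, 2 and 5 for C57 over B6 after LPS, 3 and 1 for C57 over B6 untreated, 4 and 5 for PWD over B6 untreated, and 4 and 5 for PWD over C57 untreated. Under that scaling 7 genes were called against B6 after LPS in PWD and C57, beside 9243 and 7576 of the 13246 tested genes. Untreated, all 9 were called in PWD against either strain, beside 8179 of all tested genes against B6 and 7287 against C57. The equal counts of the 9 genes thus stood beside unequal all-gene counts. The genes whose strain difference kept its sign and call under all 4 scaling and pseudocount alternatives after LPS were Nos2, Arg1, Arg2, Ass1 and Slc7a2 for PWD over B6, and Nos2, Arg1 and Arg2 for C57 over B6.

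**Figure D5:**
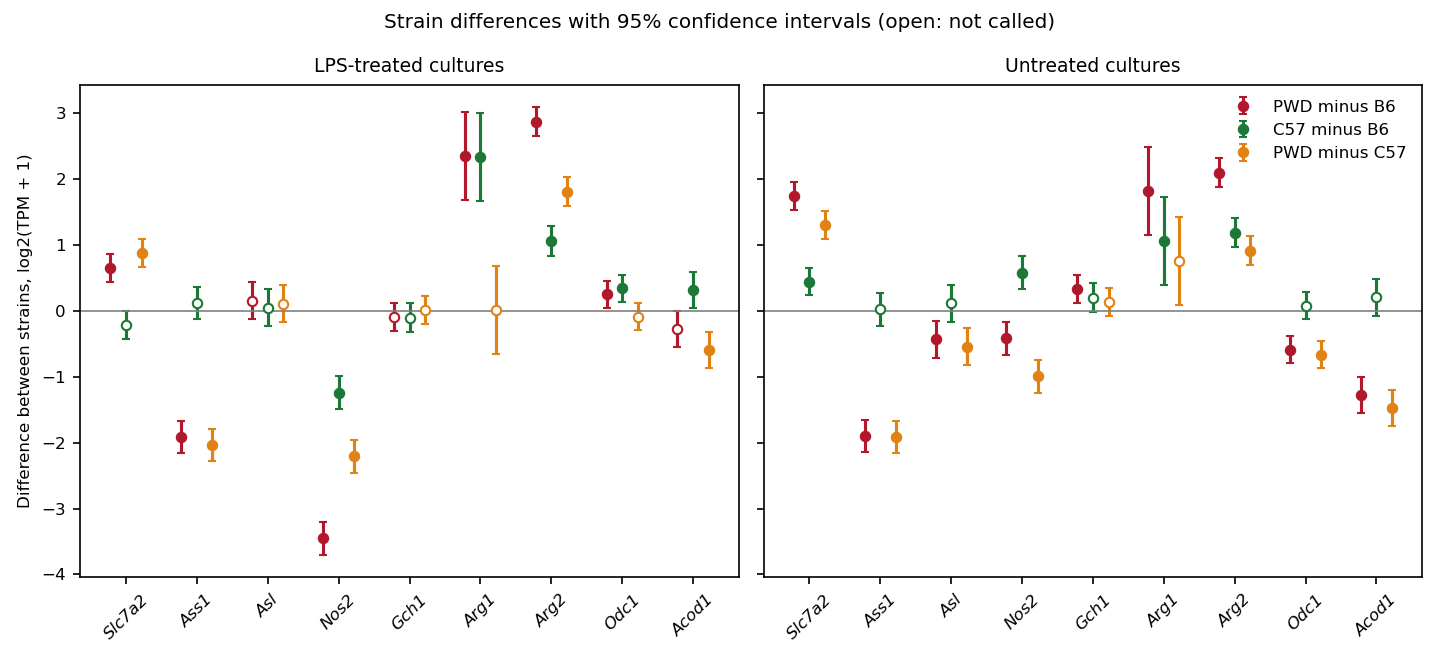
Differences between strains on the log2(TPM + 1) scale, in LPS cultures (left) and untreated cultures (right), with 95% confidence intervals from 4 libraries per group; open symbols were not called. After LPS, PWD minus B6 runs from -3.45 for Nos2 to 2.87 for Arg2; the small positive values of Odc1 (0.25 in PWD, 0.34 in C57), of Asl (0.15 in PWD) and of C57 Acod1 (0.32) turn negative under median-of-ratios scaling.

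The difference between LPS responses was itself tested for each gene. Against B6, PWD had a larger value in Arg2, Asl, Acod1 and Odc1 and a smaller one in Nos2, Slc7a2 and Gch1, 7 of 9 genes beside 23.5% of all genes tested (16.0% higher and 7.50% lower). C57 against B6 had 2 of 9, Nos2 and Slc7a2, both smaller, beside 14.3% of all genes (10.9% higher and 3.39% lower). PWD against C57 had 4 larger (Arg2, Asl, Acod1 and Odc1) and 1 smaller (Nos2), beside 11.4% of all genes (5.41% higher and 5.99% lower). With each mouse as a block, PWD against B6 again had 7, with Arg1 called and Asl not, C57 against B6 had 3, with Arg1 larger, and PWD against C57 had 3 larger and 3 smaller, with Arg1 and Slc7a2 called as smaller and Asl not called. On leaving out any 1 library of PWD or B6 the first count was 5 or 6, and not 7. These 3 sets of differences share samples, so their values are set side by side and not counted as separate evidence. Because the 9 genes were chosen with earlier results of these data known, their counts beside the all-gene shares do not test the set.

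Other genes of the same pathways were followed from lists of 84 genes, of which all were in the table and 70 were tested. After LPS 4 rose and 51 fell in PWD, 7 rose and 53 fell in C57, and 6 rose and 48 fell in B6, with medians of -0.52, -0.54 and -0.54 beside the all-gene medians of -0.32, -0.32 and -0.43. Under median-of-ratios scaling the counts were 12 higher and 31 lower in PWD, 14 and 35 in C57, and 21 and 30 in B6. Of the 13 tested partners of nitric oxide synthase and tetrahydrobiopterin, 0 rose and 10 fell in each strain on the deposited scale, beside the 52.4% of all genes called lower in PWD, 52.2% in C57 and 59.7% in B6. Under median-of-ratios scaling 1 was higher and 6 lower in PWD, 1 and 7 in C57, and 2 and 7 in B6. Slc3a2, the heavy chain that pairs with several amino acid carriers, rose by 0.48 in PWD, 0.44 in C57 and 0.56 in B6 (adjusted p = 0.000179, 0.00057 and 2.17e-05). Slc7a7, a carrier that exports cationic amino acids, was lower in PWD than in B6 after LPS, at a mean of 3.50 TPM in PWD and 12.1 TPM in B6 (difference -1.56, adjusted p = 2.52e-10). Aldh18a1, which makes the precursor of proline and ornithine from glutamate, differed after LPS by -1.37 in PWD, -1.05 in C57 and -1.79 in B6 (adjusted p = 1.57e-08, 1.47e-06 and 5.87e-11). Gatm, which transfers the guanidino group of arginine in creatine synthesis, was higher in PWD than in B6 after LPS by 1.23 (10.2 TPM in PWD against 3.78 TPM in B6, adjusted p = 2.57e-07).

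Among the 18 tested polyamine genes, the spermidine synthase Srm fell with Odc1. It averaged 11.1 TPM in PWD LPS against 35.5 TPM in PWD Untreated (-1.60, adjusted p = 5.14e-11) and 5.13 TPM in B6 LPS against 29.6 TPM in B6 Untreated (-2.33, adjusted p = 2.25e-14). Its fall was smaller than in B6 by 0.73 in PWD (adjusted p = 0.00373) and by 1.33 in C57 (adjusted p = 1.67e-05). Smox, which oxidises spermine, averaged 18.3 TPM in PWD LPS against 42.4 TPM in B6 LPS (-1.17, adjusted p = 2.30e-09), and 19.6 TPM in PWD Untreated against 44.5 TPM in B6 Untreated (-1.15, adjusted p = 4.76e-09). Atp13a2, a lysosomal polyamine exporter, was higher than in B6 after LPS, at 33.2 TPM in PWD and 34.2 TPM in C57 against 8.21 TPM in B6 (1.89 and 1.94, adjusted p = 5.38e-14 and 5.21e-13). Amd2 read 15.1 TPM in PWD Untreated against 0.135 TPM in B6 Untreated, while Amd1, of which it is a near-identical copy, was at 19.6 TPM in PWD Untreated against 32.2 TPM in B6 Untreated. Reads of that pair may be divided between the copies, so both values are uncertain.

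Among the 27 tested genes of itaconate supply and its targets, 3 rose and 19 fell in PWD, 5 and 21 in C57, and 3 and 18 in B6 after LPS, beside all-gene shares of 11.1% higher and 52.4% lower in PWD, 10.4% and 52.2% in C57, and 11.9% and 59.7% in B6. Under median-of-ratios scaling the counts were 5 higher and 11 lower in PWD, 7 and 13 in C57, and 11 and 9 in B6. Over all tested genes that scaling gave 3593 higher and 3461 lower in PWD, 3291 and 3494 in C57, and 4128 and 4025 in B6. Lower calls thus outnumbered higher ones among the itaconate genes in PWD and C57 but not in B6, beside nearly balanced all-gene counts. Nfkbiz, which encodes IkappaB-zeta, an inflammatory regulator that itaconate derivatives are known to restrain, rose by 2.68 in PWD, 2.32 in C57 and 2.85 in B6 (adjusted p = 3.51e-18, 1.96e-16 and 1.38e-18). Rab32, a GTPase that takes part in delivering itaconate to bacteria-containing vacuoles, rose by 1.03, 0.74 and 1.51 in PWD, C57 and B6 (adjusted p = 1.26e-09, 4.26e-07 and 4.48e-13). It averaged 121 TPM in PWD Untreated against 38.3 TPM in B6 Untreated (1.62, adjusted p = 4.80e-14). Idh1, the cytosolic isocitrate dehydrogenase, differed after LPS by -1.60 in B6 (19.7 TPM in B6 LPS against 62.1 TPM in B6 Untreated, adjusted p = 1.26e-12). Idh2, its mitochondrial counterpart, was higher than in B6 after LPS in PWD at 31.0 TPM and in C57 at 25.4 TPM, against 8.42 TPM in B6 (1.78 and 1.48, adjusted p = 1.74e-12 and 3.14e-10). Hmox1, a heme-degrading target of the Nrf2 pathway, averaged 328 TPM in PWD LPS, 750 TPM in C57 LPS and 296 TPM in B6 LPS, and C57 exceeded B6 by 1.33 (adjusted p = 7.04e-11). Nqo1, another such target, averaged 12.9 TPM in PWD LPS against 27.1 TPM in B6 LPS (-1.03, adjusted p = 5.87e-08).

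The genes whose pattern over the 24 libraries was most like each of the 9 were found by Pearson's r of log2(TPM + 1) among 7710 genes with a mean of at least 10 TPM in some group. The libraries share strain and treatment, so these values describe likeness and carry no test. Nos2 was most like Il27 (r = 0.986), Ptgs2 (r = 0.983) and Schip1 (r = 0.981), of which Ptgs2, the inducible cyclooxygenase, averaged 132 TPM in PWD LPS, 429 TPM in C57 LPS and 573 TPM in B6 LPS. Arg1 was most like Glul, glutamine synthetase (r = 0.952), and Arg2 like Ifitm10 (r = 0.982). The most similar gene to Ass1 was Tma16 (r = 0.991), and the third, Srp54c, averaged 0.864 TPM in PWD LPS, 33.2 TPM in C57 LPS and 27.6 TPM in B6 LPS. Slc7a2 was most like Olr1 (r = 0.979), Gch1 like Cfb (r = 0.9754) and Acod1 like Oasl1 (r = 0.984). Asl had the weakest counterpart, Tgoln1 (r = 0.870). Among the 9 genes, Nos2 and Acod1 ran together (r = 0.922), as did Slc7a2 and Gch1 (r = 0.903), and Slc7a2 ran against Odc1 (r = -0.903).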

How the data were processed

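RNA from 24 cultures of mouse bone marrow-derived dendritic cells, 4 mice in each of 3 strains with and without LPS, was made into stranded libraries, per the labels' protocols. The deposited values are TPM. STAR, edgeR and the build mm10 appear in the submitters' processing notes with no version or role. The annotation, the counting tool and the RNA selection are not stated there. TPM keeps no read depth, so counting error is unknown and precision rests on the 4 libraries per group. The table has 55401 rows. Lines sharing a symbol were summed to 55291 symbols, and 13246 with at least 1 TPM in at least 4 libraries were tested. No column was left unused.

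A linear model over all 6 groups was fitted to log2(TPM + 1) using limma (version 3.58.1, R 4.3.3, 18 residual degrees of freedom, empirical Bayes with trend and robust options). Adjusted p-values are two-sided with Benjamini-Hochberg adjustment over all tested genes in each of 12 comparisons. Tables and figures were made with Python 3.11.15, pandas 2.3.3, numpy 2.4.6 and matplotlib 3.10.9, and the fit was tested on simulated data. Coordinates of genes come from GENCODE M21 on mm10 and promoters from RefSeq on GRCm38.p6, with 4 of the 9 genes matched. The members and gene lists were chosen with earlier results of these data known. Pathway genes named in each comparison are the up to 4 largest called differences in each direction among genes with a mean of at least 5 TPM in a group, and like genes are the 3 with the highest r. The text names a part of those genes.

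The design text describes cultures from individual mice, so the LPS and untreated libraries of 1 strain and number were taken as 1 mouse. After group means were removed, such pairs correlated with r of 0.0514 to 0.176 in 12 pairs, and 10 of them had their own partner as the best match. Alternatives were another pseudocount, other filters and scalings, a fit with a replicate block, a fit of the compared groups only, either pair of numbers alone, and leaving out each library.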

Additional observations from a re-analysis of the deposited data

Results flagged for a closer look

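Of 54 groups of 4 libraries, 2 had a library far from the others, and chance flags about 1 in 20 groups. Asl in PWD LPS had its lowest library at 15.2 TPM (library 3), below the other 3 at 20.6 to 21.8 TPM. Odc1 in C57 Untreated had its highest library at 114 TPM (library 2), above the other 3 at 101.6 to 103 TPM.

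The LPS responses differed between strains, by the interaction term of the limma fit on the log2(TPM + 1) scale, in 14 of 27 tests over the 9 genes. Over all tested genes the shares called were 23.5% for PWD minus B6, 14.3% for C57 minus B6 and 11.4% for PWD minus C57. The 3 sets of differences share samples, so the 27 tests are not separate evidence. With the 9 genes chosen after earlier results of these data were known, 14 of 27 beside those shares is no test of the set. For PWD minus B6 the differences were -3.03 for Nos2, -1.10 for Slc7a2, -0.42 for Gch1, 0.58 for Asl, 0.77 for Arg2, 0.84 for Odc1 and 1.00 for Acod1. For C57 minus B6 they were -1.82 for Nos2 and -0.67 for Slc7a2. For PWD minus C57 they were -1.21 for Nos2, 0.57 for Odc1, 0.65 for Asl, 0.88 for Acod1 and 0.90 for Arg2. The neutrophil marker sum was lower after LPS without overlap in PWD (821 to 1264 TPM in PWD LPS and 1829 to 3066 TPM in PWD Untreated) and in B6 (1219 to 1478 TPM in B6 LPS and 1854 to 2104 TPM in B6 Untreated), and with overlap in C57 (1640 to 3041 TPM in C57 LPS and 2698 to 4327 TPM in C57 Untreated). S100a8 and S100a9 made up most of that sum, and its other members were not alike. Ltf was lower after LPS in PWD (14.6 against 40.2 TPM) and B6 (4.89 against 7.02 TPM). Camp was not, at 43.5 against 40.6 TPM in PWD and 3.19 against 0.740 TPM in B6. Ly6g was lower in PWD (10.3 against 14.6 TPM) and level in B6 (5.06 against 4.99 TPM). The marker sum that includes eosinophil genes was several-fold higher in PWD than in the other strains in both treatments, through the eosinophil genes Prg2, Ear1, Epx and Siglecf and not through Kit or Mcpt8. The part of these markers in the response differences was not tested.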

How the results depend on the processing

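Each of the 108 differences was recomputed under the alternatives, 2268 values in all, of which 2075 kept their sign and side of the threshold, 67 gained a call, 65 lost one and 61 changed sign. Values that were called and then changed sign were Odc1 in PWD over B6 and Acod1 and Odc1 in C57 over B6, all after LPS with median-of-ratios scaling, the Nos2 response PWD minus C57 with the smaller pseudocount, and the Asl response PWD minus C57 with numbers 3 and 4. With numbers 3 and 4 alone, sign changed for Ass1 (-0.014) and Asl (-0.33) after LPS in PWD, Asl in PWD over B6 after LPS (-0.040), Ass1 (-0.059) and Asl (-0.070) in C57 over B6 untreated, Arg1 (-0.50), Asl (-0.15) and Gch1 (-0.15) in PWD over C57 after LPS, and the Asl responses C57 minus B6 (0.18) and PWD minus C57 (-0.010). With numbers 1 and 2 alone it changed for Asl in C57 over B6 after LPS (-0.025), Gch1 in PWD over C57 untreated (-0.049), and the responses of Ass1 (PWD minus B6 0.12, C57 minus B6 -0.076, PWD minus C57 0.19), Acod1 (C57 minus B6 -0.091) and Gch1 (PWD minus C57 0.22). Median-of-ratios scaling changed Asl (-0.17) and Odc1 (-0.080) in PWD over B6 after LPS, Ass1 (-0.19), Asl (-0.093), Gch1 (-0.0054), Acod1 (-0.0085) and Odc1 (-0.14) in C57 over B6 untreated, Ass1 (-0.29), Asl (-0.35), Acod1 (-0.089) and Odc1 (-0.056) in C57 over B6 after LPS, and the C57 minus B6 responses of Ass1 (-0.098) and Acod1 (-0.081). Quantile normalization changed Asl (-0.11) in PWD over B6 after LPS, Asl (-0.076) and Odc1 (-0.051) in C57 over B6 untreated, Asl (-0.27) in C57 over B6 after LPS and the Ass1 response PWD minus B6 (0.097). Leaving out structural RNA changed Ass1 (-0.053) in C57 over B6 untreated and its response PWD minus B6 (0.058). A pseudocount of 0.1 TPM changed the Nos2 response PWD minus C57 (0.18). The cause of these changes was not tested.

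On leaving out each library in turn, Asl after LPS in PWD ranged from -0.057 to 0.15, Ass1 in C57 over B6 untreated from -0.030 to 0.073, Asl in C57 over B6 after LPS from -0.049 to 0.094, and in PWD over C57 after LPS Arg1 ranged from -0.16 to 0.29 and Gch1 from -0.033 to 0.064. The Ass1 response PWD minus B6 ranged from -0.12 to 0.081. Calls were lost for Acod1 in C57 over B6 after LPS without B6 LPS library 1, 2 or 4 or C57 LPS library 3 or 4 (adjusted p up to 0.133), for Odc1 in PWD over B6 after LPS without B6 LPS library 2 or 4 or PWD LPS library 3 or 4 (up to 0.105), and for the Asl responses PWD minus B6 and PWD minus C57 without any of 7 and any of 9 libraries (up to 0.0736 and 0.0644). Arg1 after LPS in C57 was called without C57 LPS library 3 (-0.96, adjusted p = 0.0108). The number of the 9 genes called ranged from 5 to 6 in PWD over B6 after LPS (6 with all libraries), from 3 to 5 in C57 over B6 untreated (4), and from 5 to 6 (7), 2 to 3 (2) and 4 to 6 (5) for the PWD minus B6, C57 minus B6 and PWD minus C57 responses. The C57 minus B6 response count was 4 with median-of-ratios scaling (0 higher and 4 lower) and 4 without structural RNA (2 higher and 2 lower), against 2.

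With each mouse as a replicate block, the calls that changed for LPS differences and responses are given beside the results. Between strains the numbers pair no animals, and that block added calls for Acod1 in PWD over B6 after LPS (adjusted p = 0.0464), Slc7a2 in C57 over B6 after LPS (adjusted p = 0.0335) and Arg1 in PWD over C57 untreated (adjusted p = 0.0451), and changed no other call. Over all genes, calls in PWD after LPS numbered 8410 with all libraries and 5600 with numbers 1 and 2, and in C57 over B6 untreated 5135 and 3393. Response calls for PWD minus B6 numbered 3111, and 5747 without structural RNA. For C57 minus B6 they numbered 1896, against 3379 with median-of-ratios scaling, 4376 without structural RNA and 725 with numbers 1 and 2. For PWD minus C57 they numbered 1510, against 2861 with median-of-ratios scaling, 2966 with quantile normalization, 2780 without structural RNA and 2378 with numbers 1 and 2. Depth is unknown in TPM, which limits the Nos2 levels under 1 TPM most.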
